A study of Homo sapiens with 6 samples.

Results

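Regulators and target genes of p53, 9 genes in all, are described here in T24 bladder cancer cells after silencing of TRIM28. They were taken from the gene count table by symbol and are 9 of its 78932 annotated genes. They comprise 2 regulators of p53, MDM2 and MDM4, and 7 target genes, CDKN1A, BTG2, SESN1, GDF15, FAS, BBC3 and ZMAT3. T24 is an established human urothelial carcinoma line. No batch is named in the sample titles, and all 6 cultures share the T24 genotype. Of these, 3 biological replicates received a negative control siRNA (siNC) and 3 received siRNA against TRIM28 (siTRIM28). Which of the study's TRIM28 siRNAs was used, its dose and the time from transfection to RNA extraction are not given in the sources used here. Poly(A) RNA was sequenced in a stranded library, and reads were counted per gene.

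The p53 protein is a transcription factor that cells keep scarce. MDM2 is a ubiquitin ligase that marks p53 for degradation, and MDM4, its paralog without strong ligase activity of its own, masks the activation domain of p53. Stress frees p53 from this pair, and p53 then switches on genes for cell cycle arrest, apoptosis, repair and metabolism, together with MDM2 itself in a feedback loop. TRIM28, also called KAP1, is a chromatin corepressor and a known partner of MDM2 in the ubiquitination of p53. The counts carry no measure of p53 protein.

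Libraries hold 12989362 to 13942383 counts in siNC and 11712623 to 14018052 in siTRIM28. Levels are given as CPM, counts relative to the TMM-scaled library size. The test covers 18474 genes, those that reach 10 counts in 3 or more libraries. TRIM28 itself measures 104 ± 4.09 CPM in siNC and 8.87 ± 0.658 CPM in siTRIM28 (SD, n = 3), and its log2 fold change is -3.54 with an edgeR adjusted p of 1.03e-10. Some replicates are unusually close. The chi-square per degree of freedom between siNC 1 and siNC 2 is 1.08 against at least 4.17 for the other siNC pairs, and that between siTRIM28 2 and siTRIM28 3 is 1.22 against at least 5.65. These pairs differ by slightly more than sampling noise, which cannot show whether their cultures were separate. Every library is counted as 1 replicate because the labels name it so, and this was not tested. Members whose call ends when each close pair is summed are named below, lists are given with their counts of calls under that setting, and the calls of TP63, ATF4 targets and interferon-stimulated genes were not repeated under it. Of 14 urothelial and epithelial markers, 9 do not reach the count minimum, among them CDH1 with at most 2 counts, EPCAM with at most 6 and KRT20 with 0 in every library, while KRT8 and KRT18 are present at 104 and 86.1 CPM in siNC. Of the 5 tested, UPK1A (log2 fold change 1.94, adjusted p = 0.000548), KRT7 (0.56, adjusted p = 0.0126) and KRT8 (0.14, adjusted p = 0.0354) rise, and KRT18 (0.08) and PPARG (0.07) are not called. The summed level of the 14 markers is 198 to 206 CPM in siNC and 219 to 225 CPM in siTRIM28. Of 10 markers of other cell types, 6 do not reach the count minimum, among them CD3E at 0 and PTPRC with at most 4 counts. The other 4 are VIM, a mesenchymal filament that many carcinoma lines make, at 1100 CPM in siNC (0.33, adjusted p = 2.56e-05), the lysosomal protein gene CD68 at 348 CPM (0.01, adjusted p = 0.794), ACTA2 at 7.11 CPM (-0.56, adjusted p = 0.00645) and the collagen gene COL1A1 at 0.932 CPM (1.78, adjusted p = 0.000221). The summed level of all 10 is 1450 to 1470 CPM in siNC and 1670 to 1790 CPM in siTRIM28, most of it from VIM. Both sums are higher in siTRIM28, although ACTA2 is lower and CD68, KRT18 and PPARG are not called. The part of these markers in the results was not tested.

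CDKN1A is the member that moves furthest. Its transcript is 1.99 times as abundant after TRIM28 silencing, where more expressing cells and more RNA per cell cannot be told apart in bulk RNA. MDM2, FAS and BBC3 are also higher, by 1.16 to 1.32 times, but their calls end under several other settings. MDM4, BTG2, SESN1 and ZMAT3 do not pass the test, and GDF15 is barely detected.

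Among the 8 members tested, 4 are called higher at an adjusted p under 0.05 (CDKN1A, MDM2, FAS, BBC3), where 21.3% of all tested genes are. By edgeR 0 members are called lower, where 20.5% of all tested genes are, while 1 member, ZMAT3, is lower at an unadjusted p of 0.0331. DESeq2 also calls 0 lower. With a log2 fold change of at least 0.58 added to the call, CDKN1A alone is called higher, and 9.51% of all tested genes are. The groups do not overlap for 4 of the 8 members, against 52.0% of all tested genes, a share close to that of the members. The median log2 fold change is 0.31 over the 8 members and 0.02 over all tested genes. DESeq2 calls 1 member higher, as does the fit with close pairs summed, and in each case this is CDKN1A.

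**Figure D1:**
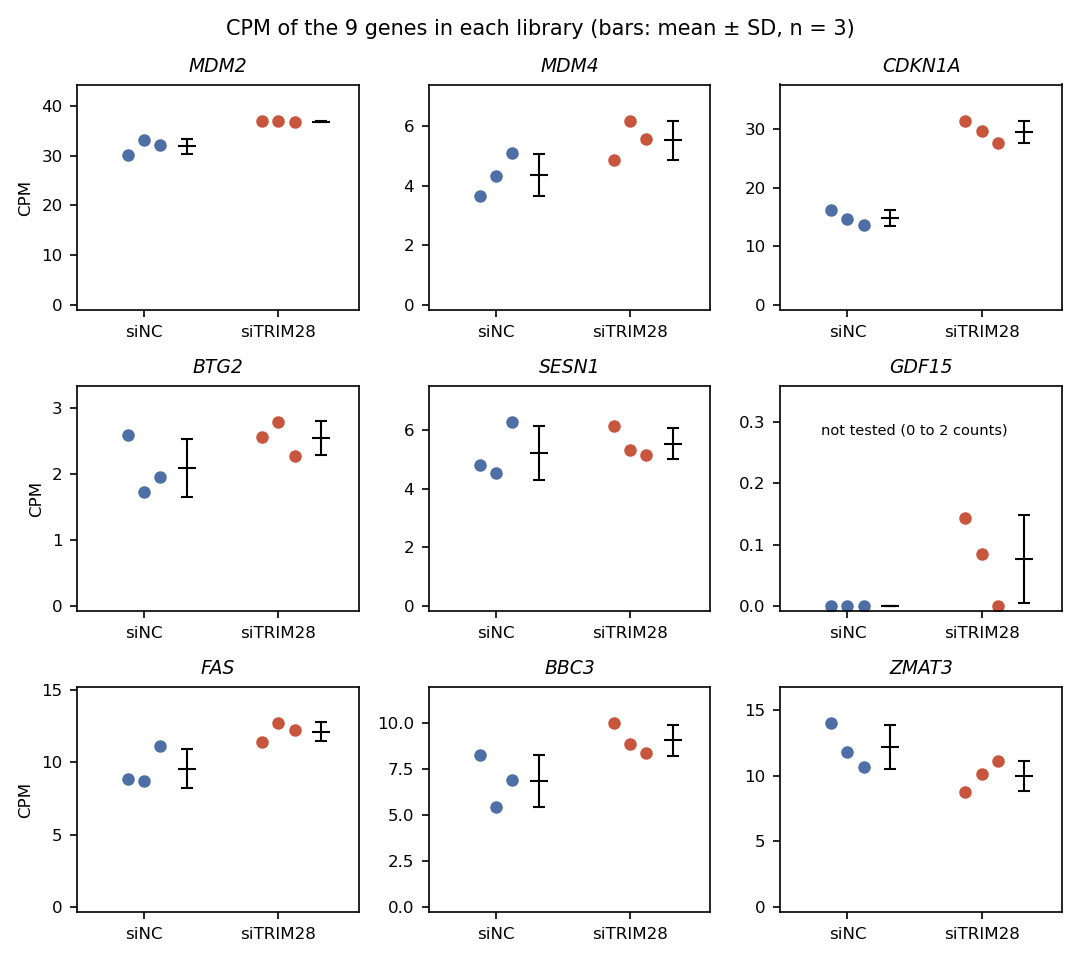
CPM of each of the 9 genes (vertical axes from 0, with a scale of their own) in the 3 siNC and 3 siTRIM28 libraries (points, replicates 1 to 3 from left to right), with the mean ± SD (n = 3) beside them. The CDKN1A points lie between 13.6 and 16.3 CPM in siNC and between 27.6 and 31.4 CPM in siTRIM28, while the points of MDM4, BTG2, SESN1 and ZMAT3 overlap between the groups.

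MDM2, the ubiquitin ligase of p53, lies at chr12:68808177-68844195 on the plus strand (GRCh38, ENSG00000135679). It measures 30.2, 33.2 and 32.1 CPM in siNC 1 to 3, and 36.9, 36.9 and 36.7 CPM in siTRIM28 1 to 3. All siTRIM28 libraries are above all siNC libraries. The log2 fold change is 0.21 (SE 0.06, 95% CI 0.07 to 0.34) with an edgeR adjusted p of 0.0169. The siTRIM28 SD of 0.151 CPM is below the 1.72 CPM that counting alone gives on average, so the closeness of these 3 values is narrower than the precision of the counts. The adjusted p is 0.0985 with DESeq2, 0.0544 with close pairs summed and 0.0562 without a count minimum, and without siNC 1 it is 0.0928 with a log2 fold change of 0.16. The span of MDM2 also holds 2 unnamed genes with 34 to 57 counts per library and, on the opposite strand, part of the carboxypeptidase M gene, which has 52 to 98 counts and a log2 fold change of 0.33 (adjusted p = 0.164).

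MDM4, the paralog that binds p53 without degrading it efficiently, lies at chr1:204516379-204558119 on the plus strand (ENSG00000198625). Its 51 to 73 counts per library correspond to 3.67, 4.33 and 5.10 CPM in siNC 1 to 3 and to 4.86, 6.17 and 5.57 CPM in siTRIM28 1 to 3. siNC 3 lies above siTRIM28 1, so the groups overlap. The log2 fold change of 0.34 (SE 0.17, 95% CI -0.03 to 0.70) does not pass the test, with an edgeR adjusted p of 0.125, and the interval reaches as far as 0.70. MDM2 transcripts outnumber MDM4 transcripts per length by 10.9, 10.2 and 8.36 times in siNC 1 to 3 and by 10.1, 7.93 and 8.71 times in siTRIM28 1 to 3. The log2 ratio is 3.28 ± 0.20 in siNC and 3.15 ± 0.17 in siTRIM28 (SD, n = 3), a difference of -0.14 that is within the spread of the libraries (exact two-sided permutation p = 0.4, where the smallest possible is 0.1).

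CDKN1A encodes p21, the cyclin-dependent kinase inhibitor through which p53 halts the cell cycle, and lies at chr6:36676460-36687337 on the plus strand (ENSG00000124762). Its levels are 16.3, 14.7 and 13.6 CPM in siNC 1 to 3 and 31.4, 29.8 and 27.6 CPM in siTRIM28 1 to 3. The lowest siTRIM28 library is well above the highest siNC library. The means are 14.9 ± 1.36 and 29.6 ± 1.88 CPM (SD, n = 3), so CDKN1A rises with a log2 fold change of 0.99 (SE 0.08, 95% CI 0.81 to 1.17) with an edgeR adjusted p of 2.38e-06. An exact permutation of its log2 CPM gives p = 0.1, the smallest that 3 against 3 libraries allow. Ordered by log2 fold change from the top, it is number 690 of the 18474 tested genes. Leaving out any library keeps the log2 fold change between 0.93 and 1.05, and every alternative tried keeps it past the threshold. DINOL, a noncoding transcript known to respond to p53 that lies on the opposite strand of CDKN1A, has at most 1 count in any library.

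The antiproliferative targets next to p21 show no call. BTG2, a regulator of mRNA deadenylation and of the G1 phase, lies at chr1:203305491-203309569 on the plus strand (ENSG00000159388). It has 24 to 36 counts per library and measures 2.59, 1.73 and 1.96 CPM in siNC and 2.57, 2.79 and 2.28 CPM in siTRIM28. siNC 1 lies among the siTRIM28 libraries. Its log2 fold change is 0.28 (SE 0.21, 95% CI -0.19 to 0.75, adjusted p = 0.326). SESN1, a sestrin that restrains mTORC1 when nutrients or DNA integrity fail, lies at chr6:108984309-109093968 on the minus strand (ENSG00000080546). It measures 4.82, 4.55 and 6.27 CPM in siNC and 6.14, 5.32 and 5.15 CPM in siTRIM28, with the highest value of all in siNC 3. Its log2 fold change is 0.10 (SE 0.16, 95% CI -0.26 to 0.45, adjusted p = 0.666), and without siNC 2 it is -0.00122.

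The apoptotic targets are FAS and BBC3. FAS, the death receptor on the cell surface, lies at chr10:88953813-89015542 on the plus strand (ENSG00000026103). It measures 8.86, 8.74 and 11.1 CPM in siNC 1 to 3 and 11.4, 12.7 and 12.2 CPM in siTRIM28 1 to 3. siNC 3 comes close to siTRIM28 1 without reaching it. The log2 fold change is 0.34 (SE 0.11, 95% CI 0.10 to 0.58) with an edgeR adjusted p of 0.0280, which becomes 0.10 with DESeq2, 0.151 with close pairs summed and 0.127, 0.132, 0.0885 and 0.0862 without siNC 1, siNC 2, siTRIM28 2 and siTRIM28 3. The span of FAS overlaps 2 named genes that move apart, STAMBPL1 on the same strand (log2 fold change 0.63, adjusted p = 0.000258) and ACTA2 on the opposite strand (-0.56, adjusted p = 0.00645). Their part in the FAS count was not tested. The strand setting of the counting is not given, and it would not separate STAMBPL1, which shares the strand of FAS.

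BBC3, also called PUMA, is a BH3-only protein that triggers mitochondrial apoptosis and lies at chr19:47220822-47232766 on the minus strand (ENSG00000105327). It measures 8.28, 5.42 and 6.90 CPM in siNC 1 to 3 and 10.0, 8.87 and 8.36 CPM in siTRIM28 1 to 3. The gap between siNC 1 and siTRIM28 3 is small, although the groups do not overlap. Its log2 fold change of 0.41 (SE 0.15, 95% CI 0.07 to 0.74) has an edgeR adjusted p of 0.0495, just inside the threshold. The adjusted p is 0.0931 with DESeq2 and 0.0502 with close pairs summed. Without siNC 2, siNC 3, siTRIM28 1, siTRIM28 2 or siTRIM28 3 the call ends, with log2 fold changes of 0.25, 0.41, 0.33, 0.42 and 0.45.

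ZMAT3 is the tested member whose estimate lies below 0. It encodes an RNA-binding zinc finger protein that p53 induces and that shapes splicing, and lies at chr3:178960121-179072215 on the minus strand (ENSG00000172667). It measures 14, 11.8 and 10.7 CPM in siNC 1 to 3 and 8.78, 10.1 and 11.1 CPM in siTRIM28 1 to 3. siTRIM28 3 lies above siNC 3, so the groups overlap. The log2 fold change is -0.29 (SE 0.12, 95% CI -0.56 to -0.03) and the edgeR adjusted p of 0.0727 misses the threshold, whereas it is 0.0440 without siNC 3 and 0.0316 without a count minimum.

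GDF15, a secreted stress cytokine that p53 and the ATF4 pathway are known to induce, lies at chr19:18374731-18388935 on the plus strand (ENSG00000130513). It has 0 counts in all siNC libraries and 2, 1 and 0 counts in siTRIM28 1 to 3. A count of 0 allows up to 3 counts, or 0.215, 0.216 and 0.235 CPM in siNC 1 to 3, which covers counting error only. All values are therefore at or below what this depth can tell apart, and no fold change is given.

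**Figure D2:**
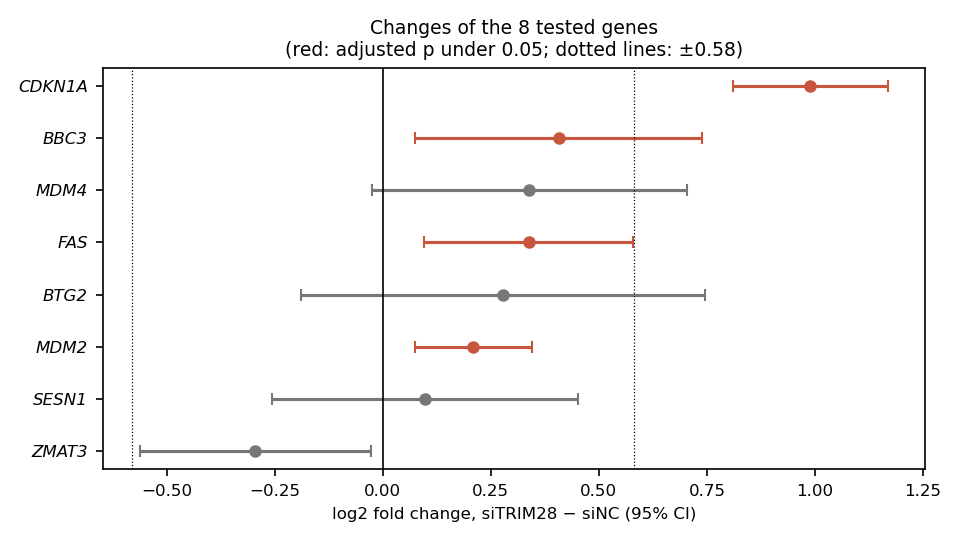
Log2 fold change (siTRIM28 − siNC, horizontal axis) with its 95% CI from edgeR for the 8 tested members (circles), n = 3 per group, in red where the adjusted p is under 0.05, with dotted lines at ±0.58. The interval of CDKN1A, 0.81 to 1.17, lies wholly above 0.58, and those of the other 7 members do not.

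Per kilobase of annotated exon, the order of levels in siNC is CDKN1A at 4.88 ± 0.445 CPM per kb, MDM2 at 3.83 ± 0.187, BBC3 at 2.16 ± 0.449, ZMAT3 at 1.08 ± 0.152, BTG2 at 0.760 ± 0.161, SESN1 at 0.717 ± 0.127, MDM4 at 0.397 ± 0.0647, FAS at 0.327 ± 0.0460 and GDF15 at 0 (SD, n = 3). In this order BTG2 overlaps SESN1 and MDM4 overlaps FAS between libraries, and the other neighbours do not overlap. In siTRIM28 the order starts with CDKN1A at 9.68 ± 0.614, MDM2 at 4.43 ± 0.0181 and BBC3 at 2.85 ± 0.263 CPM per kb. BTG2 at 0.923 ± 0.0922 and ZMAT3 at 0.885 ± 0.101 then follow in exchanged places, and they overlap, as do ZMAT3 and SESN1 at 0.761 ± 0.0728. FAS is low per kilobase partly by construction, since its annotated exons sum to 29313 bases, the longest of the 9 genes.

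Promoter windows of RefSeq (GRCh38.p14, 250 bases before to 50 after a start site) are available for all 9 genes, in 17 windows of 300 bases. They were searched for the p53 full-site consensus, a pair of adjacent decamers without a spacer, which reads alike on both strands. Only the closest match in each window was kept, so further matches in a window are not described. Those of 4 members are shown here, MDM2 and FAS with the fewest mismatches, SESN1 with the next fewest and CDKN1A for the clearest change in level. GDF15, which equals SESN1 in mismatches, is not shown. The 20 matched bases are in capitals, on the strand of the gene, from 5′ to 3′.
MDM2: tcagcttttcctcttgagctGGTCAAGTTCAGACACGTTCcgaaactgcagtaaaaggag
FAS: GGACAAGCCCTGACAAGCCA
SESN1: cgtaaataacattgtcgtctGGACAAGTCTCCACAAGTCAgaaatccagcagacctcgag
CDKN1A: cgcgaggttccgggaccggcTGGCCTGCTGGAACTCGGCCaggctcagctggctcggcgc

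The MDM2 match (chr12:68808923-68808942, plus strand) has 2 mismatches, begins 94 bases before the inner start site of the gene and is intronic for transcripts from the outer start site. The FAS match (chr10:88991309-88991328, plus strand) also has 2 mismatches and lies 122 bases before a start site, in bases that GENCODE annotates as exonic for transcripts of FAS and of ACTA2. Up to 2 mismatches occur in windows of 0.82% of 27305 genes. The SESN1 match (chr6:109009018-109009037, minus strand) has 3 mismatches and is intronic within SESN1, and GDF15 also has a match with 3 mismatches, in an annotated exon, where 6.39% of genes have at most 3. BTG2 and ZMAT3 have 4 mismatches at best and MDM4, BBC3 and CDKN1A have 5, a number that 74.7% of genes reach. The CDKN1A match (chr6:36678541-36678560, plus strand) lies in the gene and in an exon of DINOL. The best known p53 sites of CDKN1A lie farther upstream than the window. MDM2 and FAS, with the closest matches, are called higher in the reported fit, and SESN1, with 3 mismatches, shows no call. CDKN1A, the member with the clearest change in level, has 1 of the weakest matches in its window. The relation of matches to changes was not tested. Matches are a description of letters in these windows and not of binding.

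TP63, a relative of p53 that defines basal epithelium, is near the detection limit at 0.469 ± 0.180 CPM in siNC and 0.966 ± 0.262 CPM in siTRIM28 (log2 fold change 1.01, SE 0.38), with an adjusted p of 0.04998 that lies at the threshold. TP73, another relative, has at most 2 counts per library and is not tested.

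The wider set of p53 targets, 45 genes listed from general knowledge without the members, is mixed in direction. This list and the lists that follow were chosen with earlier results of these data known, so their shares of calls are a description. Of these, 40 are tested, 17 are higher (42.5%, against 21.3% of all tested genes) and 6 are lower (15.0%, against 20.5%), with a median log2 fold change of 0.16. With close pairs summed, 13 are higher and 7 lower. The highest are ACER2, an alkaline ceramidase, at 1.39, PMAIP1, the BH3-only protein NOXA, at 1.27, E2F7, a transcriptional repressor of the cell cycle, at 1.14, CYFIP2 at 0.79 and the adaptor TRAF4 at 0.67. PMAIP1 goes from 20.1 ± 0.594 to 48.3 ± 3.90 CPM (edgeR adjusted p = 1.52e-07), and E2F7 from 18.1 ± 0.318 to 40.0 ± 2.38 CPM (adjusted p = 1.87e-07). Both estimates are above that of CDKN1A, but the genes were not tested against each other. The lowest are KITLG, the ligand of the KIT receptor, at -0.72, FBXO22, a ubiquitin ligase subunit, at -0.45, RRM2B, the p53-inducible subunit of ribonucleotide reductase, at -0.39, XPC, a sensor of DNA damage in nucleotide excision repair, at -0.38 and the hydrolase gene CMBL at -0.27. The 5 genes below the count minimum are TP53INP1, PHLDA3, SFN, SPATA18 and GLS2, with at most 6 counts in a library.

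By role, the apoptotic genes PMAIP1, AEN (0.56), APAF1 (0.53) and TNFRSF10B (0.39) are higher, while BAX, the effector of mitochondrial permeabilization (0.23, adjusted p = 0.177), EDA2R (0.45, adjusted p = 0.304), PERP (0.07, adjusted p = 0.309), PIDD1 (0.08, adjusted p = 0.819) and TP53I3 (-0.56, adjusted p = 0.0541) are not called. Repair genes go both ways. DDB2, which recognises ultraviolet lesions (0.56), and POLH, a translesion polymerase (0.61), rise and XPC and RRM2B fall. GADD45A, a growth arrest gene, is higher (0.26, adjusted p = 0.00284), and CCNG1, a cyclin long used as a p53 readout, is lower (-0.25, adjusted p = 0.00217). PPM1D, the phosphatase that turns p53 signalling off, has a log2 fold change of 0.10 (adjusted p = 0.644). The genes grouped by role in this paragraph were picked out after their values were seen.

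Genes that act on p53 from above, activators and inhibitors alike, go both ways, with more called lower than higher. Of 26 listed, 25 are tested, 7 are higher (28%, against 21.3%) and 11 are lower (44.0%, against 20.5%), with a median of -0.14. With close pairs summed, 5 are higher and 9 lower. The gene below the count minimum is CDKN2A, with at most 1 count in a library. Higher are KMT5A, a methyltransferase that modifies p53 (0.94, from 64.7 ± 3.29 to 124 ± 2.55 CPM), PPP1R13L, the inhibitory ASPP family member (0.74), TRIM24, a ligase for p53 (0.42), the kinase ATM (0.27) and the ligase HUWE1 (0.26). Lower are HIPK2, a kinase that phosphorylates p53 in apoptosis (-0.89, from 90.9 ± 2.30 to 49.2 ± 1.10 CPM), RPL23, a ribosomal protein that binds MDM2 (-0.60), the checkpoint kinase CHEK1 (-0.59), TP53BP2 (-0.57), which encodes the p53-binding protein ASPP2, and the deubiquitinase USP10 (-0.52). RPL5 and RPL11, which also bind MDM2, fall by 0.24 and 0.18 on the log2 scale.

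**Figure D3:**
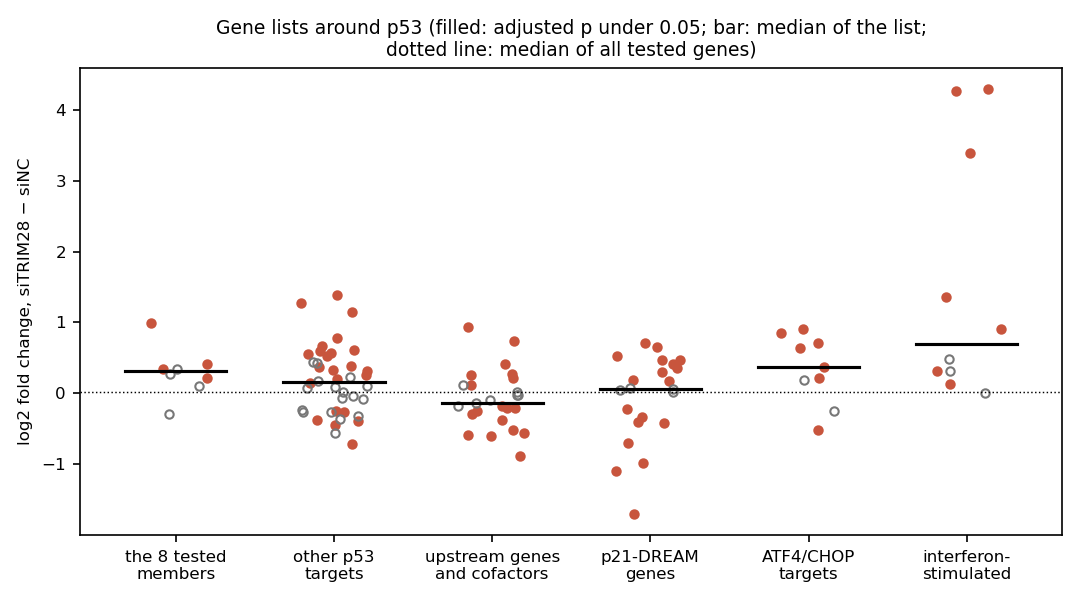
Log2 fold change (siTRIM28 − siNC, vertical axis) of every tested gene (points, spread sideways at random) in the members and in 5 lists, filled where the edgeR adjusted p is under 0.05, with the median of each list as a bar and that of all tested genes as a dotted line. The medians are 0.31 for the members, 0.16 for other p53 targets, -0.14 for upstream genes and cofactors and 0.06 for p21-DREAM genes.

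Genes known to be repressed through p21 and the DREAM complex do not move as a block. All 22 are tested, 10 are higher (45.5%, against 21.3%) and 8 are lower (36.4%, against 20.5%), and the median is 0.06. With close pairs summed, 8 are higher and 7 lower. Higher are the proliferation marker MKI67 (0.71, from 894 ± 31.1 to 1460 ± 70.0 CPM), CDC25C (0.66), TTK (0.53), CDK1 (0.47) and PLK1 (0.47), which act at mitotic entry and in mitosis. Lower are BIRC5, the mitotic and antiapoptotic protein survivin (-1.70, from 113 ± 1.73 to 34.9 ± 2.25 CPM), RRM2, the S phase subunit of ribonucleotide reductase (-1.09), the centromeric histone CENPA (-0.98), the replication helicase subunit MCM2 (-0.70) and the mitotic kinase AURKB (-0.42).

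Across the 6 libraries, the genes whose log2 CPM is most like that of CDKN1A among 11339 other genes with a symbol and a mean of at least 50 counts are FOS (Pearson r = 0.999), DNAJB9 (0.998) and SDHAP4 (0.998). For MDM2 they are CERS1 (0.997), C8orf44 (0.996) and AMY2B (0.995). These values are a description over libraries that fall into 2 groups, so any gene with a clear change between the groups comes close to 1.

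**Figure D4:**
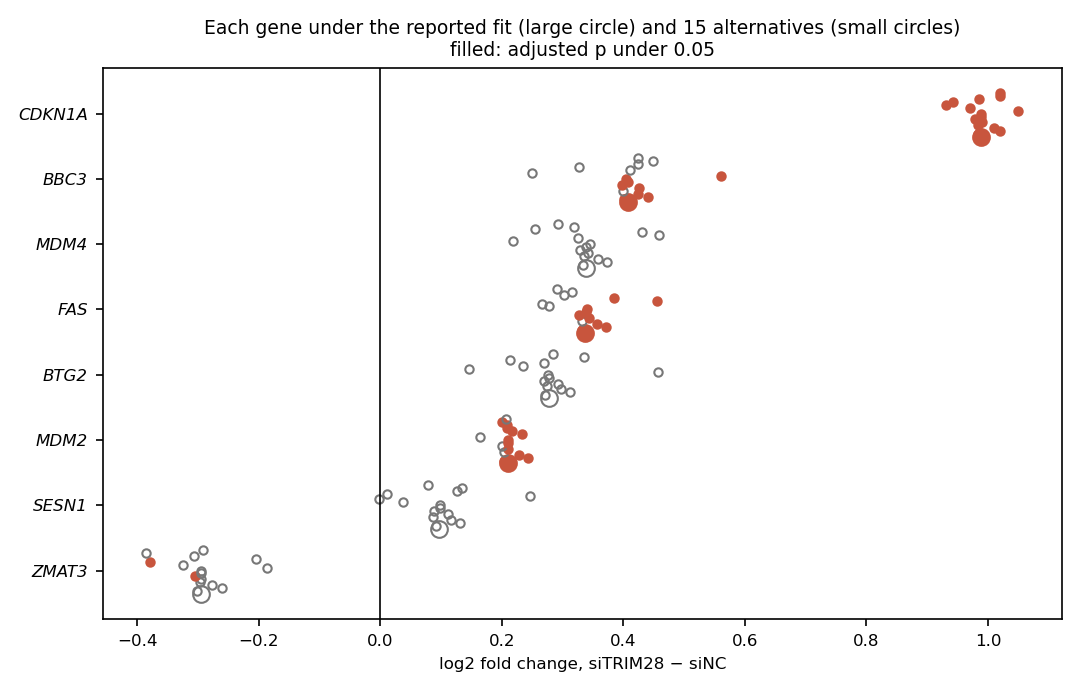
Log2 fold change (siTRIM28 − siNC, horizontal axis) of each tested member under the reported edgeR fit (large circle) and under 15 alternatives of scaling, test, filter, design and libraries (small circles), filled where the adjusted p is under 0.05. The CDKN1A circles are all filled, MDM2, FAS and BBC3 have filled and open circles, and ZMAT3 has 2 filled circles at -0.30 and -0.38.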

How the data were processed

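Poly(A) RNA of 6 T24 cultures was sequenced. According to the submitters' processing notes, fastp 0.23.1, STAR 2.7.6a and featureCounts were used with GRCh38. The strand setting, annotation release and treatment of duplicates are not given in the sources used here. The deposited counts are raw numbers of reads for each gene, with no normalization by the authors. A deposited RPKM table of the genes that the authors call differential was not used, since it was selected on the comparison.

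The quasi-likelihood test of edgeR 4.0.16 (R 4.3.3) was run on TMM-scaled counts with condition as its term. The test is two-sided, with Benjamini-Hochberg adjustment over 18474 genes that reach 10 counts in 3 or more libraries, which hold 99.7% of the counts. A gene is called at an adjusted p under 0.05, and a second rule also asks for an absolute log2 fold change of 0.58 or more. The SE was derived from the F statistic, and a CI covers 95%. Single genes were also compared by exact permutation. Groups and replicates come from the labels. They call the samples biological replicates without saying how the cultures were separated, so p-values measure the spread between these libraries only.

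In simulated data, 140 (70%) of 200 genes changed by 0.8 on the log2 scale among 18474 were called, with 17 unchanged genes. Far more genes, 7723, are called in the real data, and every tested member except CDKN1A has an estimate smaller than 0.8. The 70% is therefore no measure of power for those members. Alternatives were scaling by total counts, by RLE or by the upper quartile, DESeq2 1.42.0, limma-voom (limma 3.58.1), other count minimums, a block for the replicate number, each library left out, close pairs summed and an adjusted p under 0.01. Figures used matplotlib 3.10.9 and tables pandas 2.3.3 with numpy 2.4.6 (Python 3.11.15). All 6 libraries enter the reported values.

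The members and lists were chosen with earlier results of these data known. All members and TRIM28 are named. From each list, up to 5 genes with the highest and up to 5 with the lowest log2 fold change are named among called genes whose groups do not overlap, and lists with 5 or fewer tested genes in full, apart from an item that is not reported here. Other genes named were picked out after their values were seen. The likeness of patterns was ranked over genes with a mean of at least 50 counts.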

Additional observations from a re-analysis of the deposited data

How the results depend on the processing

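CDKN1A and TRIM28 kept their direction and their call under every alternative. Over the alternatives, 278 values stayed, 20 lost the threshold, 2 gained it, 10 counts moved and 1 value changed sign. A gene stayed if it kept its direction and its side of the threshold, and a count if it remained within 1.5 times. The difference in the MDM2 to MDM4 ratio stayed if it shifted by less than the larger group SD, whatever its sign. MDM2, FAS and BBC3 lost their call with DESeq2 (log2 fold changes of 0.20, 0.33 and 0.40), with close pairs summed (0.21, 0.29 and 0.42) and at an adjusted p under 0.01 (0.21, 0.34 and 0.41), and MDM2 also without a count minimum (0.20), where ZMAT3 gained one at -0.30. Members called higher numbered 1 with DESeq2, 1 with close pairs summed and 1 at an adjusted p under 0.01, and members called lower numbered 1 without a count minimum. At an adjusted p under 0.01, 7 upstream genes were called lower. With each library left out in turn, log2 fold changes ranged from 0.16 to 0.23 for MDM2, 0.27 to 0.46 for FAS, 0.25 to 0.56 for BBC3, 0.22 (without siNC 1) to 0.46 for MDM4, 0.15 (without siNC 2) to 0.46 (without siNC 1) for BTG2, -0.39 to -0.19 (without siNC 1) for ZMAT3 and -0.00122 to 0.25 for SESN1, which changed sign without siNC 2. The difference in the log2 ratio of MDM2 to MDM4 ranged from -0.25 (without siNC 3) to -0.06 (without siNC 1 or siTRIM28 2), and 2 to 3 members were called higher and 0 to 1 lower. The cause was not tested. Calls over all genes numbered 7723 and ranged from 5393 at an adjusted p under 0.01 and 5878 with DESeq2 to 8252 without siTRIM28 1. Of these calls, 51.1% were higher, and 56.6% with upper-quartile scaling. With the replicate block 7910 genes were called and no call of a member changed. Deviations of libraries with the same number correlate at 0.0658, -0.0242 and 0.0506. The close pairs carry different numbers in siNC and siTRIM28, so these values cannot settle whether the numbers pair the samples. Depth limits BTG2, MDM4, TP63 and GDF15, which have at most 73 counts per library.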

Other observations

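Targets of ATF4 and CHOP, transcription factors of the integrated stress response that share SESN2 and GDF15 with the p53 pathway, are mostly higher. Of 10 listed genes, 9 are tested, 6 are higher (66.7%, against 21.3% of all tested genes) and 1 is lower (11.1%, against 20.5%), with a median log2 fold change of 0.37. DDIT3, which encodes CHOP, measures 30.0 ± 2.72 CPM in siNC and 56.5 ± 5.26 CPM in siTRIM28 (SD, n = 3), with a log2 fold change of 0.91 (edgeR adjusted p = 6.07e-06). VLDLR rises by 0.84, DDIT4, an inhibitor of mTORC1, by 0.70 and ATF4 itself by 0.64. SESN2, the paralog of SESN1 and a member of both lists, rises by 0.37 (adjusted p = 0.0238). ATF3 falls by 0.52 on the log2 scale (adjusted p = 0.0186).

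Interferon-stimulated genes include larger changes than any of the 9 p53 pathway genes. Of 11 listed genes, 10 are tested, 7 are higher (70.0%, against 21.3%) and 0 are lower by edgeR at the adjusted or the unadjusted threshold, with a median of 0.69. IFIT3 measures 3.48 ± 0.490 CPM in siNC and 68.5 ± 3.91 CPM in siTRIM28, with a log2 fold change of 4.29 (adjusted p = 1.21e-10), and IFIT2 rises by 4.27, IFIT1 by 3.39, ISG15 by 1.36 and IFI6 by 0.91. FAS, PMAIP1 and TNFRSF10B are known to respond to interferon as well as to p53, and the part of either pathway in their change was not tested.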
